A study of Mus musculus with 8 samples.

Results

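The genes described here encode 35 proteins of the lysosome, namely its soluble hydrolases and their cofactors, its membrane glycoproteins and its membrane transporters, with the cathepsins left out. They were chosen by symbol from a list of known lysosomal proteins. All 35 were found among the 24924 genes analysed, and all 35 passed the filter on low counts in every comparison. Microglia and brain T cells had been isolated by their surface markers from aged mice, C57BL/6 animals of 20 to 22 months, and their RNA was sequenced. Treated mice were given interleukin-5 (IL-5), a cytokine best known for its action on eosinophils, with a daily 2 µg for 2 days, and control mice had phosphate-buffered saline (PBS). Each cell type was sequenced under each treatment in 2 libraries, 8 in all. The labels do not say whether the libraries came from separate mice or pools of mice, so every p-value measures the spread between these samples, which may be technical.

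The lysosome is the acid compartment in which cells break down material taken up from outside and worn parts of their own. Its soluble hydrolases are tagged with a mannose phosphate in the Golgi and carried there by receptors, while heavily glycosylated membrane proteins line its inner face and transporters export the products. Microglia, the resident phagocytes of the brain, depend on this system, and inherited loss of many of these enzymes causes storage disease of the nervous system.

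Many lysosomal genes share a promoter element recognised by the transcription factor Tfeb and its relatives, with the core TCACGTG. This motif was searched for on both strands, as TCACGTG or CACGTGA, in RefSeq windows on GRCm38.p6. The windows run from 250 bases before to 50 bases after each gene's start. It overlaps the shorter CACGTG, which it contains. Of the 35 genes, 33 had a window that was used, and 9 of these (27.3%) held the motif, against 6.73% of 11151 genes with a mean of at least 1 count per 1000000. The 9 were Lamp1, Mcoln1, Cln3, Naglu, Sgsh, Gla, Glb1, Arsa and Gaa. The shorter CACGTG was found in the same share of the members, 27.3%, and in 11.3% of the other set. The windows of Lamp1, with 4 matches, and of Mcoln1 and Naglu, with 2 matches and 1, are shown as examples of a membrane glycoprotein, an ion channel and an enzyme, with the matches in capitals and the gene's own strand written 5′ to 3′.
Lamp1, chr8:13158911-13159210, plus strand: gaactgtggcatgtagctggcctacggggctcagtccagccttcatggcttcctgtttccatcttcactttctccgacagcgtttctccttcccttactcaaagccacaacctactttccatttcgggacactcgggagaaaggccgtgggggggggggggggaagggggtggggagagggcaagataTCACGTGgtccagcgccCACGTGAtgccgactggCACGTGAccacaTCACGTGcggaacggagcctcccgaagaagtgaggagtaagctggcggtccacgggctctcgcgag
Mcoln1, chr8:3500269-3500568, plus strand: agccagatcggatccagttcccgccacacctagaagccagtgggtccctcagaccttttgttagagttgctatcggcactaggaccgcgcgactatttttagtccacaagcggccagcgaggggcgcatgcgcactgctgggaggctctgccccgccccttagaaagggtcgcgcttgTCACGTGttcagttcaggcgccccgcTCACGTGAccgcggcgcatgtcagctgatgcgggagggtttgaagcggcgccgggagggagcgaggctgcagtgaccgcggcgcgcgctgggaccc
Naglu, chr11:101069844-101070143, plus strand: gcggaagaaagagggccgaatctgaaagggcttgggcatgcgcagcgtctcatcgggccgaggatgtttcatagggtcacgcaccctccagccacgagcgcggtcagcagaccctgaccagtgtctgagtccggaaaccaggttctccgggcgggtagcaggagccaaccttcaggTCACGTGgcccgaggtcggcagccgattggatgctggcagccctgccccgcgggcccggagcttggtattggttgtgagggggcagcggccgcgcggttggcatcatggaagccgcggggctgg
In Lamp1 the first match lies 62 bases before the start, at position -62, and in Mcoln1 and Naglu the first matches lie at positions -72 and -74. A match is a description of these letters and was not tested as a binding site.

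Between 23536908 and 30423828 counts per library fell on genes. Levels are given as counts per 1000000 gene counts (CPM). Where no read was counted, the level could still be as high as 3 counts, which is 0.0986 to 0.128 CPM, by counting error alone. The sort was checked against marker genes. The microglial receptor P2ry12 stood at 1708 to 3170 CPM in microglia and at most 2.21 CPM in T cells, and the T cell receptor subunit Cd3e at 449 to 765 CPM in T cells and at most 9.68 CPM in microglia. Neither set of libraries was free of RNA from other cells. Ttr, the transthyretin gene of the choroid plexus, stood at 33495 to 59213 CPM in microglia and 45089 to 91511 CPM in T cells, and the neutrophil gene S100a8 at 5496 to 10490 CPM in microglia and at most 11.9 CPM in T cells. In such bulk samples fewer cells of a type and less RNA per cell cannot be told apart. Microglia IL-5 replicate 1 had the most reads outside genes, 25.5% against 15.2% to 19.8% in the other 7 libraries. On the second principal component, with 13.8% of the variance, it and T cells IL-5 replicate 1 stood at -127.8 and -174.4, and the other 6 libraries between 36.4 and 67.1. The microglia IL-5 results below are therefore also given without microglia IL-5 replicate 1 for the fitted members named, the median and the counts of calls.

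Together the 35 genes took 2.25% and 2.44% of the gene counts in the microglia PBS libraries and 1.36% and 1.96% in the microglia IL-5 libraries. In T cells they took 0.612% and 0.649% after PBS and 0.682% and 0.795% after IL-5. The share was lower in each microglia IL-5 library than in both microglia PBS libraries, and lower in each T cell library than in any microglia library.

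To compare genes with each other, counts were divided by transcript length and rescaled to a sum of 1000000 (TPM). In microglia after PBS the highest level was that of Cd63, a tetraspanin of late endosomes, with 3012 and 2440 TPM. Laptm5, a lysosomal membrane protein of blood-derived cells, followed with 2299 and 3063 TPM, and the ranges of these highest genes overlapped. Next came Cd68, a heavily glycosylated membrane protein of macrophage lysosomes, with a mean of 1708 TPM, Hexa, which takes part in ganglioside breakdown, with 1585 TPM, Grn, the precursor of the granulins, with 1467 TPM, and Laptm4a with 1429 TPM. Among these 4 genes each range overlapped with that of the next in order, while Cd68 lay below the range of Laptm5 and Laptm4a above that of Lamp1, with 986 and 1262 TPM. At the lower end were Galc, which cleaves galactosylceramide, Manba, which removes mannose from glycoproteins, and Sgsh, which desulfates heparan sulfate, with means of 5.02, 3.76 and 3.09 TPM. Among the membrane glycoproteins the lowest was Scarb2, with 53.7 and 52.7 TPM.

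The order differed in T cells. After PBS the highest levels per length were those of Laptm5, with 784 and 951 TPM, and Cd63, with 761 and 662 TPM. They were followed by Laptm4a, with a mean of 642 TPM, Psap, the precursor of the saposins that help sphingolipid enzymes reach their substrates, with 641 TPM, and Lamp1, a main glycoprotein of the lysosomal membrane, with 444 TPM. Grn and Hexa, both among the highest genes of microglia, had means of 75.4 and 63.8 TPM in these T cells. Cd68 was the lowest of the 35 with a mean of 4.94 TPM. On GRCm38 (GENCODE M21) these 3 protein-coding genes lie at chr9:59539540-59565109 on the plus strand (Hexa), chr11:102430315-102437048 on the plus strand (Grn) and chr11:69664213-69666153 on the minus strand (Cd68), and the counts are sums over each gene.

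**Figure D1:**
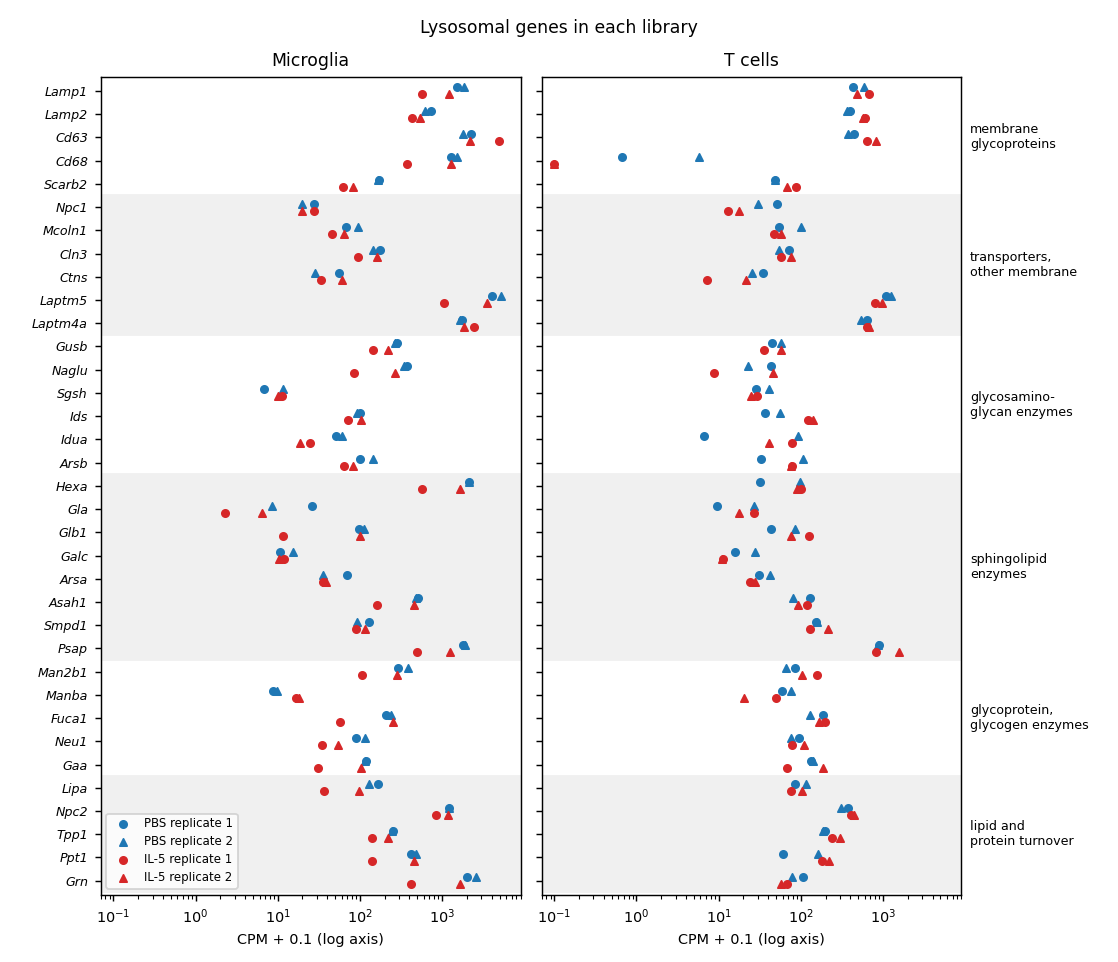
Levels of the 35 genes in CPM, with a small constant added (log axis), in the 8 libraries, 1 point per library. Genes are in rows grouped by role, and the levels are not divided by transcript length. Cd68, Hexa and Grn show the widest distance between the microglia and T cell points. Cd68 was at 0 counts in both T cells IL-5 libraries.

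The first comparison asked how T cells differ from microglia in the same treatment. In PBS mice 18 of the 35 genes were lower in T cells by edgeR's quasi-likelihood test with Benjamini-Hochberg adjustment, 51.4%, against 4.6% of the 15397 genes tested. None was higher, against 2.57% of all genes, and by an unadjusted p under 0.05 the counts were 23 lower and 1 higher, beside 1908 and 1547 of all genes. The 1 was Manba. DESeq2 called 21 lower, against 10.5% of all genes, and 1 higher, Manba, against 7.96%. The median log2 fold change of the 35 was -1.52, beside 0.06 for all genes tested, and 31 of 35 lay below 0. Among the roles, 5 of 5 membrane glycoproteins, 3 of 6 transporters and other membrane proteins, and 3 of 6 enzymes of glycosaminoglycan breakdown were lower. So were 3 of 8 genes of sphingolipid breakdown, 1 of 5 enzymes of glycoprotein and glycogen breakdown and 3 of 5 genes of lipid and protein turnover.

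The gene with the most extreme difference was Cd68. It stood at 1288 and 1527 CPM in microglia after PBS and at 0.568 and 5.63 CPM in T cells after PBS. By the means of the CPM values, which carry no TMM scaling, it was 454-fold lower in T cells, and the log2 ratios given with the tests are TMM-scaled (log2 ratio -9.52, SE 1.27, edgeR adjusted p = 0.0062). In IL-5 mice it stood at 371 and 1267 CPM in microglia and had 0 counts in both T cell libraries, at least 7675-fold lower against 3 counts per library (edgeR adjusted p = 0.00286). The groups were far apart in both treatments. The call in PBS mice nevertheless missed the threshold in edgeR without microglia PBS replicate 1 (adjusted p = 0.0761) or replicate 2 (0.0747) and with no filter on low counts (0.0752). It also did so when microglia IL-5 replicate 1 or 2 was dropped (0.0616 and 0.0599). That in IL-5 mice missed it without microglia IL-5 replicate 1 (0.0613).

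Hexa had the next largest difference. It stood at 2123 and 2121 CPM in microglia after PBS and at 31.9 and 98.9 CPM in T cells after PBS, 32.5-fold lower by CPM means (TMM-scaled log2 ratio -5.71, SE 0.66, edgeR adjusted p = 0.00149). In IL-5 mice it stood at 570 and 1638 CPM in microglia, compared with 99.6 and 89.5 CPM in T cells, 11.7-fold lower by CPM means (TMM-scaled log2 ratio -4.31, SE 0.62, adjusted p = 0.00477). Every T cell library lay below every microglia library. Grn stood at 1983 and 2615 CPM in microglia after PBS and at 106 and 77.1 CPM in T cells, 25.1-fold lower by CPM means (TMM-scaled log2 ratio -5.35, SE 0.59, edgeR adjusted p = 0.0011). In IL-5 mice Grn stood at 422 and 1650 CPM in microglia, compared with 68.6 and 56.5 CPM in T cells, 16.6-fold lower by CPM means (TMM-scaled log2 ratio -4.79, SE 0.57, edgeR adjusted p = 0.00203). The groups of Grn did not overlap either.

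Among enzymes of glycosaminoglycan breakdown, Naglu, which removes N-acetylglucosamine from heparan sulfate, stood at 378 and 339 CPM in microglia after PBS and 43.7 and 22.6 CPM in T cells. Its log2 fold change was -4.13 (SE 0.79, edgeR adjusted p = 0.0158). That call was lost without either T cell PBS library or either microglia PBS library, with edgeR adjusted p from 0.0544 to 0.115. Gusb, beta-glucuronidase, stood at 282 and 268 CPM in microglia, compared with 44.6 and 57.3 CPM in T cells after PBS (log2 ratio -3.13, SE 0.38, edgeR adjusted p = 0.00191). After IL-5 it stood at 146 and 216 CPM and at 35.9 and 57.6 CPM (log2 ratio -2.78, SE 0.38, edgeR adjusted p = 0.00364). Sgsh, of the same pathway, went the other way in level. It stood at 6.67 and 11.3 CPM in microglia, compared with 28.1 and 40.6 CPM in T cells after PBS, groups that did not overlap, but it passed no test.

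The other genes lower in PBS mice had log2 fold changes from -3.01 to -1.52. They were Lamp1, Lamp2, Cd63 and Scarb2 of the membrane, the last of which also carries the enzyme beta-glucocerebrosidase to the lysosome, and Cln3, Laptm5 and Laptm4a. Among soluble proteins they were Ids, Asah1, Psap, Man2b1, Npc2 and Ppt1. Npc2, which hands cholesterol to Npc1 for export, stood at 1213 and 1221 CPM in microglia, compared with 380 and 305 CPM in T cells after PBS (log2 ratio -2.53, SE 0.31, edgeR adjusted p = 0.00199). Npc1 itself, the membrane partner, stood at 27.3 and 19.4 CPM in microglia, compared with 50.9 and 30.3 CPM in T cells, with a log2 ratio of 0.10 once libraries were scaled by TMM. For this pair of partner proteins the soluble one differed between the cell types and the membrane one gave no call.

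In IL-5 mice 11 of the 35 were lower in T cells by edgeR, 31.4%, against 5.73% of all genes, and 0 were higher, against 2.49%. At an unadjusted p under 0.05 there were 16 lower and 0 higher, beside 1895 and 1514 of all genes, and DESeq2 called 14 lower, against 11.2% of all genes, and 0 higher, against 7.49%. The 11 called by edgeR were Cd63, Cd68, Cln3, Laptm5, Laptm4a, Gusb, Naglu, Hexa, Asah1, Npc2 and Grn. All of them were also called in PBS mice, so that the shared genes made up 61.1% of the list of 18 and 100% of the list of 11. Both comparisons came from the same fit of all 8 libraries with a shared estimate of the spread. The lists are therefore not independent of each other. The median of the 35 was -0.90, beside 0.19 for all genes, and 28 lay below 0. Cd63 had log2 fold changes of -3.01 (SE 0.51) in PBS mice and -3.20 (SE 0.51) in IL-5 mice.

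**Figure D2:**
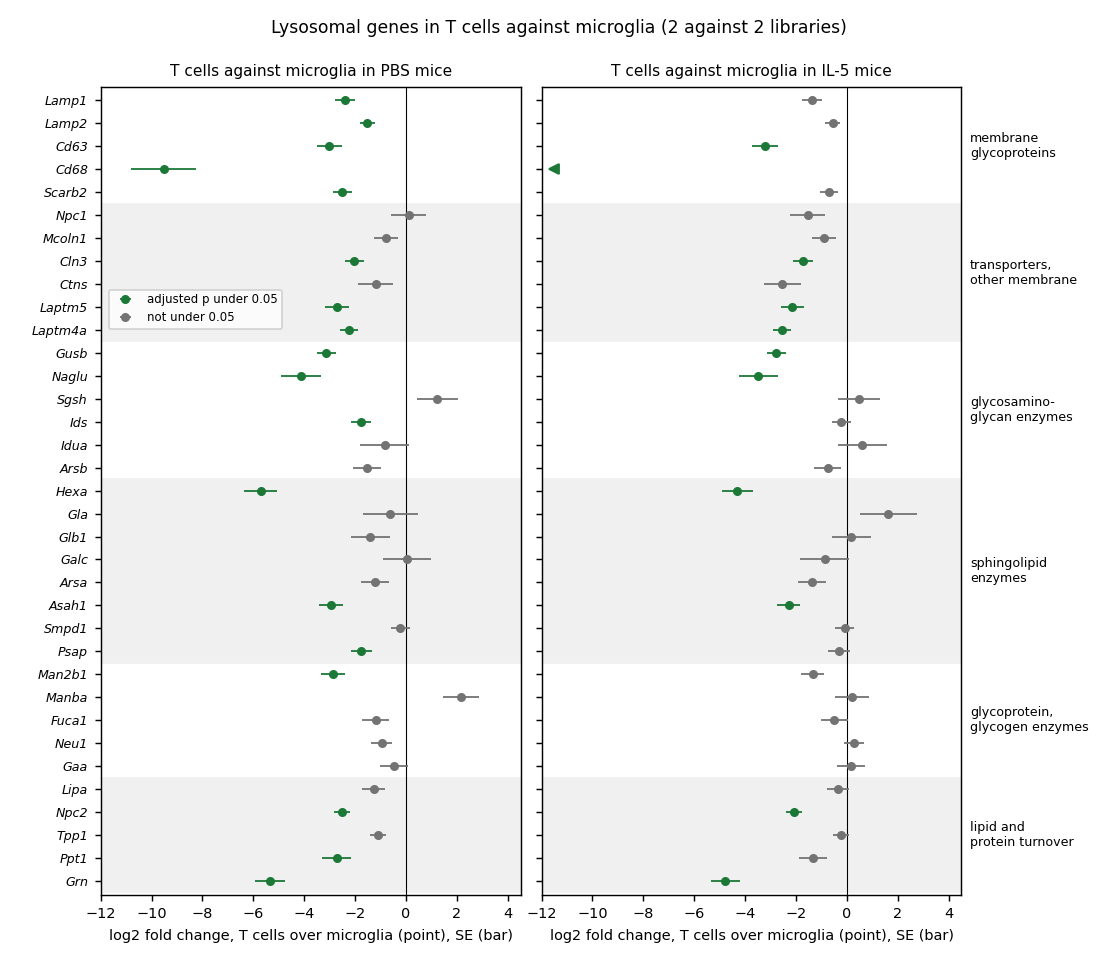
Log2 fold change of T cells over microglia for the 35 genes in PBS mice (left) and IL-5 mice (right), with the SE as a bar and genes past an adjusted p of 0.05 in green. Most points lie left of 0 in both panels, and the triangle marks Cd68 in IL-5 mice, which lies off the scale because both T cell libraries had 0 counts.

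The calls differed in how much they rested on single libraries. In PBS mice 7 of the 18 genes, Asah1, Grn, Gusb, Hexa, Man2b1, Npc2 and Scarb2, kept an edgeR adjusted p under 0.05 whichever library was left out. In IL-5 mice 4 of the 11 did, Grn, Gusb, Hexa and Laptm4a. The count of members lower in PBS mice was 9 without T cells PBS replicate 1, beside 357 of all genes, and 11 without T cells PBS replicate 2, beside 430. It was 12 once microglia PBS replicate 1 was dropped, beside 349 of all genes, and 13 once microglia PBS replicate 2 was, beside 377. With every library the counts were 18 and 709. In IL-5 mice, where they were 11 and 883, they became 5 and 284 without T cells IL-5 replicate 1, and 8 and 445 without T cells IL-5 replicate 2. In a fit of the 4 libraries compared they were 3 and 172. The counts of members and of all genes thus went down together under these changes. They did not go down under every change. In PBS mice a fit of the 4 libraries compared gave 20 members and 1072 of all genes. Scaling mattered as well. With library size only 12 members were lower in PBS mice, beside 376 of all genes, and 7 in IL-5 mice, beside 336. The genes called higher then numbered 919 and 958, where they had been 396 and 383. In place of TMM factors, library size alone moved the median of all genes from 0.06 to 0.75 in PBS mice and from 0.19 to 1.01 in IL-5 mice. The members that then turned direction were Gla, Smpd1 and Gaa in PBS mice and Lamp2, Scarb2, Ids, Arsb, Smpd1, Psap, Fuca1, Lipa and Tpp1 in IL-5 mice, and 0 of these were called in the treatment where they turned.

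Other lysosomal genes were set beside the 35. In PBS mice 10 of 14 cathepsins and legumain were lower in T cells, as were 9 of 23 other hydrolases and cofactors, 3 of 21 other membrane proteins and 3 of 20 subunits of the vacuolar ATPase, the proton pump that acidifies the lysosome. Of 23 other hydrolases 1 was higher. Of 12 genes of mannose phosphate tagging and sorting 0 passed in either direction by edgeR. Of 15 genes for Tfeb-family factors and lysosomal regulators of the mTORC1 kinase 3 were lower, and of 15 genes of autophagosome and lysosome fusion 2 were lower. Among these other lists the hydrolase lists had the larger shares of calls, and the sorting list had none. The roles of the 35 did not follow that order. There 5 of 5 membrane glycoproteins were called, and 1 of 5 enzymes of glycoprotein and glycogen breakdown. The summed level of 9 neutrophil markers also differed between the cell types, with 13577 to 17601 CPM in microglia and at most 26.96 CPM in T cells, where 1 to 8 of the 9 were at 0. Its part in the members' differences was not tested.

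The second comparison asked what IL-5 does in microglia. No member passed edgeR's test in either direction, as for all 13764 genes tested, where the share called was 0%. At an unadjusted p under 0.05 there were 2 members lower and 0 higher, beside 371 and 246 of all genes. DESeq2 called 0 members, beside 0.131% of all genes higher and 0.356% lower. The smallest adjusted p of a member was 0.964 in edgeR. The median log2 fold change of the 35 was -0.53, beside -0.02 for all genes, and 28 of 35 lay below 0 (80%), beside 7020 of 13764. With libraries scaled by TMM, both IL-5 libraries lay below both PBS libraries for 22 of the 35 (62.9%), beside 21.1% of all genes, and above them for 2 (5.71%), beside 17.4%. These 2 were Laptm4a and Manba.

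Among membrane glycoproteins, Lamp1 stood at 1497 and 1862 CPM in the PBS libraries, against 562 and 1200 CPM in the IL-5 libraries, with a log2 ratio of -0.83 (SE 0.45, edgeR adjusted p = 0.964). Its groups did not overlap, and the IL-5 libraries differed from each other more than the PBS libraries did. Scarb2 stood at 172 and 164 CPM in the PBS libraries, against 61.8 and 81.4 CPM in the IL-5 libraries (log2 ratio -1.09, SE 0.37, edgeR adjusted p = 0.964). It was 1 of the 2 members with an unadjusted p under 0.05, and both of its IL-5 libraries lay far below its PBS libraries. Lamp2, whose product also serves in the uptake of proteins into the lysosome, stood at 736 and 610.5 CPM in the PBS libraries, against 432 and 543 CPM in the IL-5 libraries (log2 ratio -0.32, SE 0.39). Without IL-5 replicate 1 the log2 ratio was -0.51 for Lamp1, -1.06 for Scarb2 and -0.33 for Lamp2.

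Cd68 stood at 1288 and 1527 CPM in the PBS libraries, against 371 and 1267 CPM in the IL-5 libraries, so that only the first IL-5 library was far from the PBS libraries (log2 ratio -0.72, SE 0.55). Cd63 was the member of this role that went up in level. It stood at 2274 and 1790 CPM in the PBS libraries, against 4913 and 2176 CPM in the IL-5 libraries (log2 ratio 1.04, SE 0.60, edgeR adjusted p = 0.974). The second IL-5 library lay between the PBS libraries, and the groups overlapped. Once IL-5 replicate 1 was dropped, the log2 ratio was 0.07 for Cd63 and -0.17 for Cd68.

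The transporters and other membrane proteins had a median of 0.01, with 3 of 6 below 0. Without IL-5 replicate 1 the median was -0.14, with 4 of 6 below 0. Laptm5 stood at 4068 and 5269 CPM in the PBS libraries, against 1060 and 3548 CPM in the IL-5 libraries (log2 ratio -0.95, SE 0.57, edgeR adjusted p = 0.974). Laptm4a, a related protein, stood at 1729 and 1671 CPM in the PBS libraries, against 2427 and 1840 CPM in the IL-5 libraries, both IL-5 libraries being higher. Npc1 stood at 27.3 and 19.4 CPM in the PBS libraries, against 27.7 and 19.8 CPM in the IL-5 libraries, nearly the same pair of values (log2 ratio 0.22). In the fit without IL-5 replicate 1 the log2 ratio of Laptm5 was -0.42 and that of Npc1 -0.26. Mcoln1, a cation channel, Cln3, lost in juvenile Batten disease, and Ctns, the cystine exporter, had 33.3 to 160 CPM after IL-5 and 28.1 to 174 CPM after PBS.

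Of the enzymes of glycosaminoglycan breakdown 5 of 6 lay below 0, with a median of -0.53. Naglu stood at 378 and 339 CPM in the PBS libraries, against 85.7 and 269 CPM in the IL-5 libraries (log2 ratio -0.95, SE 0.51, edgeR adjusted p = 0.964). Idua, alpha-L-iduronidase, stood at 50.5 and 59.7 CPM in the PBS libraries, against 24.7 and 18.7 CPM in the IL-5 libraries (log2 ratio -1.15, SE 0.53, edgeR adjusted p = 0.964). Idua was among the members in which the second IL-5 library was the lower. The groups of both genes did not overlap. With IL-5 replicate 1 left out their log2 ratios were -0.44 for Naglu and -1.58 for Idua.

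Of the genes of sphingolipid breakdown 7 of 8 lay below 0, with a median of -0.74. Psap stood at 1790 and 1882 CPM in the PBS libraries, against 493 and 1239 CPM in the IL-5 libraries (log2 ratio -1.0, SE 0.48, edgeR adjusted p = 0.964). Hexa stood at 2123 and 2121 CPM in the PBS libraries, against 570 and 1638 CPM in the IL-5 libraries (log2 ratio -0.87, SE 0.51). Gla, alpha-galactosidase A, stood at 26.2 and 8.51 CPM in the PBS libraries, against 2.17 and 6.35 CPM in the IL-5 libraries (log2 ratio -1.95, SE 1.06, edgeR adjusted p = 0.964). All 3 had both IL-5 libraries below both PBS libraries, and leaving out IL-5 replicate 1 gave -0.59 for Psap, -0.40 for Hexa and -1.48 for Gla. Glb1, beta-galactosidase, stood at 98.2 and 112 CPM in the PBS libraries, against 11.4 and 98.8 CPM in the IL-5 libraries, so that its second IL-5 library lay within the range of the PBS libraries. Asah1, acid ceramidase, stood at 515 and 479 CPM in the PBS libraries, against 163 and 449 CPM in the IL-5 libraries. Smpd1, acid sphingomyelinase, stood at 130 and 92.2 CPM in the PBS libraries, against 88.9 and 115 CPM in the IL-5 libraries, with overlapping groups. Galc and Arsa, the enzymes for galactosylceramide and its sulfated form, had 10.3 to 38.6 CPM after IL-5 and 10.6 to 68.9 CPM after PBS.

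Of the enzymes of glycoprotein and glycogen breakdown 4 of 5 lay below 0, with a median of -0.70. Neu1, which removes sialic acid, stood at 88.8 and 114 CPM in the PBS libraries, against 34.5 and 54.4 CPM in the IL-5 libraries (log2 ratio -1.07, SE 0.41, edgeR adjusted p = 0.964). It was the other member with an unadjusted p under 0.05, and its log2 ratio was -0.92 without IL-5 replicate 1. Manba stood at 8.74 and 9.79 CPM in the PBS libraries, against 16.5 and 18.1 CPM in the IL-5 libraries, the reverse order. Gaa, which breaks down glycogen in the lysosome, stood at 118 and 116 CPM in the PBS libraries, against 30.8 and 102 CPM in the IL-5 libraries. Man2b1, an alpha-mannosidase, and Fuca1, a fucosidase, were likewise far lower in the first IL-5 library, at 107 and 56.8 CPM, than in the second, at 285 and 251 CPM. In the PBS libraries Man2b1 stood at 290 and 380 CPM and Fuca1 at 206 and 240 CPM. The second IL-5 library thus lay below both PBS libraries for Man2b1 and above both for Fuca1.

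The remaining 5 genes, of lipid and protein turnover, all lay below 0, with a median of -0.53. Grn stood at 1983 and 2615 CPM in the PBS libraries, against 422 and 1650 CPM in the IL-5 libraries (log2 ratio -1.10, SE 0.60, edgeR adjusted p = 0.964). Lipa, the acid lipase for cholesteryl esters, stood at 168 and 128 CPM in the PBS libraries, against 36.8 and 96.3 CPM in the IL-5 libraries (log2 ratio -1.07, SE 0.48, edgeR adjusted p = 0.964). The groups of both genes did not overlap. Npc2 stood at 1213 and 1221 CPM in the PBS libraries, against 848 and 1194 CPM in the IL-5 libraries, the second IL-5 library being close to the PBS level (log2 ratio -0.12, SE 0.39). Fitted without IL-5 replicate 1, the log2 ratios were -0.50 for Grn, -0.65 for Lipa and -0.050 for Npc2. Tpp1, a peptidase, and Ppt1, which removes palmitate from proteins, stood at 140 and 142 CPM in the first IL-5 library and at 219 and 460 CPM in the second. In the PBS libraries Tpp1 stood at 254 and 249 CPM and Ppt1 at 424 and 484 CPM. The second IL-5 library thus lay below both PBS libraries for Tpp1 and between them for Ppt1.

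**Figure D3:**
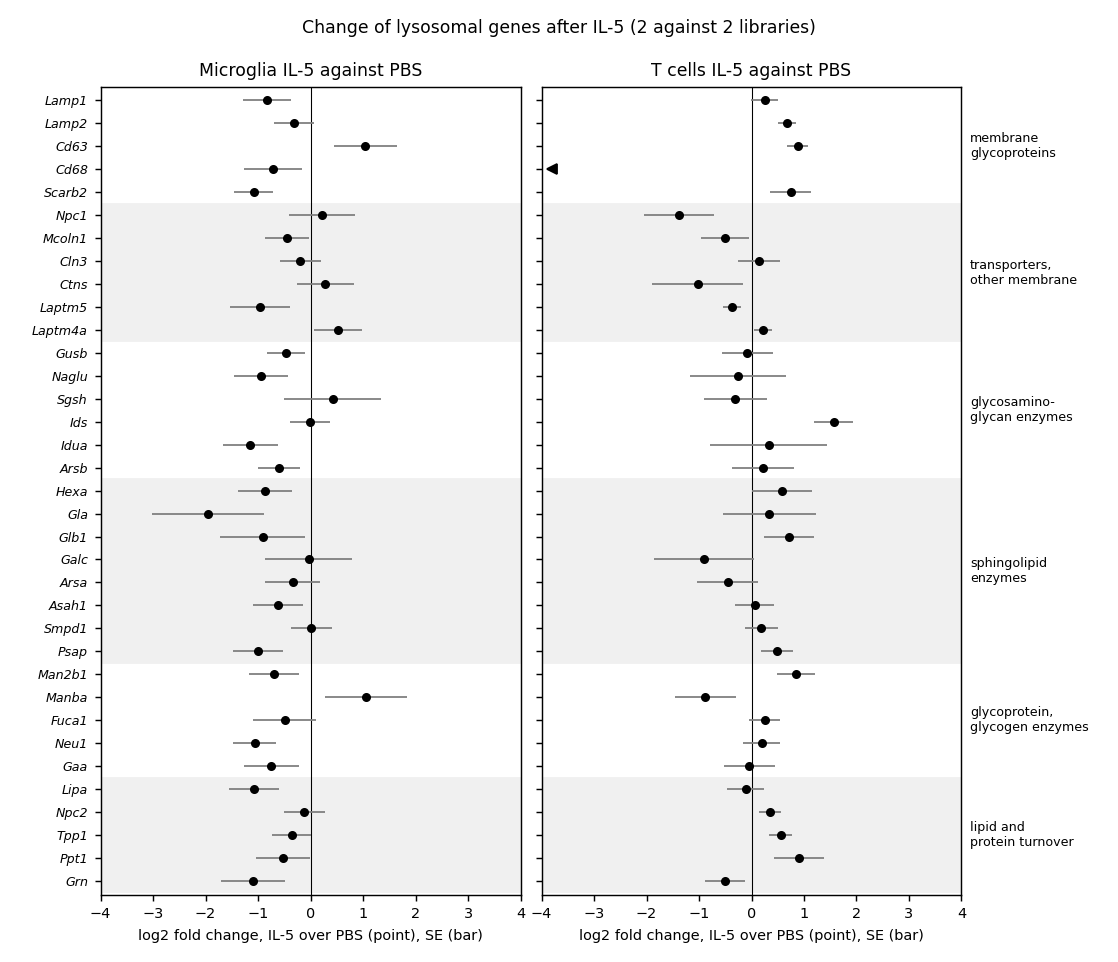
Log2 fold change of IL-5 over PBS for the 35 genes in microglia (left) and T cells (right), with the SE as a bar. In microglia 28 of 35 points lie below 0 and in T cells 14 of 35, no gene passes an adjusted p of 0.05 in edgeR, and the triangle marks Cd68 in T cells, which lies off the scale.

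Much of the distance between the microglia groups lay in IL-5 replicate 1. It was below IL-5 replicate 2 for 29 of the 35 genes (82.9%), beside 61.7% of all genes with a mean of at least 5 CPM. It lay below both PBS libraries for 28 genes (80%), beside 51.1% of all genes, and its median log2 ratio to the PBS mean was -1.15. IL-5 replicate 2 lay below both PBS libraries for 22 genes (62.9%), beside 32.8% of all genes, with a median of -0.24. The PBS libraries agreed within 1.5-fold for 31 of 35 genes and the IL-5 libraries for 15 of 35. Without IL-5 replicate 1 the fitted median of the 35 was -0.26, beside -0.09 for all genes, 27 lay below 0 and 0 were called.

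Without IL-5 replicate 2 the median was -0.82, beside -0.31 for all genes, with 14 members called lower and 2 higher by edgeR, beside 723 and 532 of all genes. That fit sets 1 library against 2 and assumes that the lone library varies like the others. The 14 were Lamp1, Cd68, Laptm5, Naglu, Hexa, Glb1, Asah1, Psap, Man2b1, Fuca1, Gaa, Lipa, Ppt1 and Grn, and the 2 were Cd63, with a log2 ratio of 1.61, and Laptm4a. The summed level of 12 microglia markers was 22033 and 20682 CPM in the PBS libraries, against 13670 and 17203 CPM in the IL-5 libraries, lowest in IL-5 replicate 1, as was the share of counts that the members took. The summed level of 9 choroid plexus markers was 43309 and 36017 CPM in the PBS libraries, against 60221 and 64085 CPM in the IL-5 libraries. The part of these marker levels, and of the higher share of reads outside genes in IL-5 replicate 1, in the members' values was not tested. With the libraries scaled to the microglia markers, the median was -0.24, beside 0.26 for all genes, 24 members lay below 0 and 0 were called. With offsets adjusted for transcript length the median was -0.25, beside 0.09 for all genes.

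**Figure D4:**
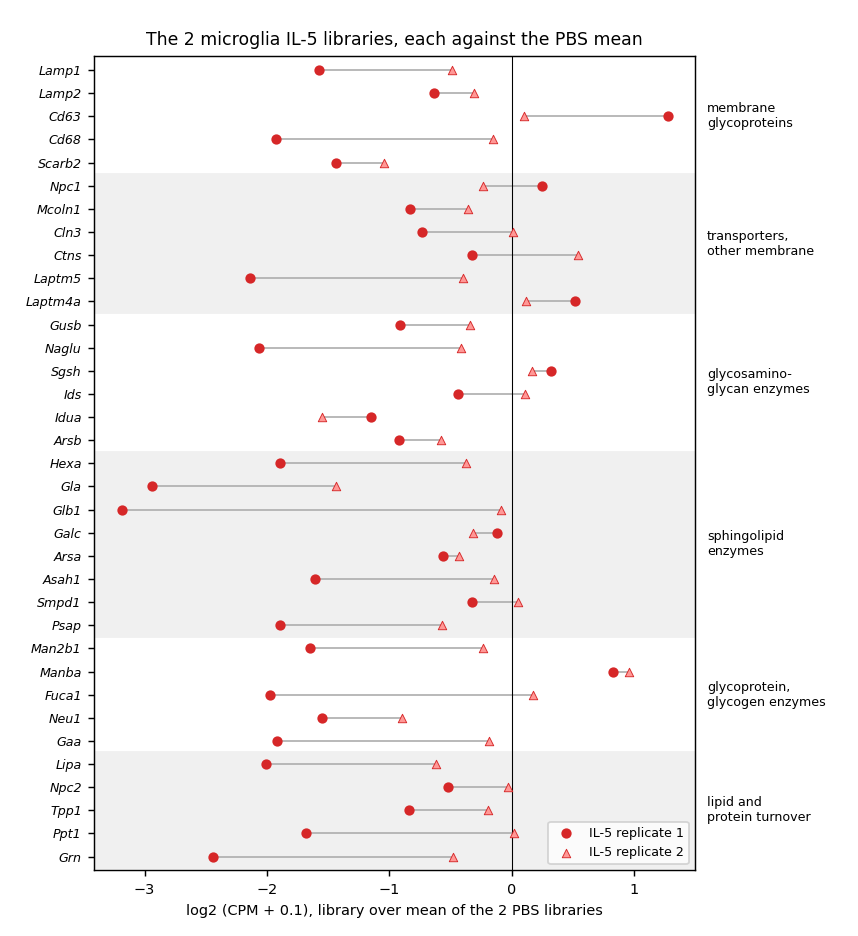
Level of each of the 35 genes in the 2 microglia IL-5 libraries as a log2 ratio, with 0.1 CPM added, to the PBS mean. Replicate 1 (circles) lies left of replicate 2 (triangles) for 29 of 35 genes, and Cd63, Npc1 and Laptm4a are among the exceptions.

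Other lysosomal genes in microglia gave no edgeR call either, and no list of them did. All 14 cathepsins and legumain lay below 0 with -0.77 as the median of their log2 ratios. Both IL-5 libraries were below both PBS libraries for 11 of them, beside 21.1% of all genes. Ctsd, an aspartic protease of the lysosome, stood at 19843 and 24202 CPM in the PBS libraries, against 4526 and 15298 CPM in the IL-5 libraries. Of 23 other hydrolases and cofactors 20 lay below 0, with a median of -0.66, and of 21 other membrane proteins 14 did, with a median of -0.48. The proton pump was spread on both sides. Of its 19 subunits tested 9 lay below 0, with a median of 0.05. Of 12 tagging and sorting genes 9 lay below 0, with a median of -0.71. The median was 0.19 for 15 genes of Tfeb-family factors and mTORC1 regulators, and -0.13 for 15 genes of autophagosome and lysosome fusion. Of the 15 fusion genes 10 lay below 0. Without IL-5 replicate 1 the medians were -0.26 for cathepsins and legumain, -0.28 for other hydrolases and -0.32 for other membrane proteins. They were 0.15 for the proton pump, -0.27 for tagging and sorting, 0.15 for Tfeb-family factors and mTORC1 regulators, and 0.02 for fusion. In the same order 13, 16, 16, 8, 7, 7 and 7 genes then lay below 0. The median of all genes in that fit was -0.09. Uvrag, from that list, stood at 40.9 and 55.6 CPM in the PBS libraries, against 14.0 and 12.7 CPM in the IL-5 libraries. Gabarap, which marks autophagosome membranes, stood at 880 and 785 CPM in the PBS libraries, against 2527 and 1089 CPM in the IL-5 libraries. Among the members the 9 with the TCACGTG motif had a median of -0.75, with 8 below 0, and the 24 with a window but no motif had a median of -0.51, with 19 below 0.

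The third comparison asked what IL-5 does in brain T cells. By edgeR 0 members passed in either direction, with 0% of 13897 genes called, and at an unadjusted p under 0.05 there were 4 members higher and 0 lower, beside 355 and 245 of all genes. DESeq2 called 3 members higher, beside 2.9% of all genes, and 1 lower, beside 1.83%. The median of the 35 was 0.19, beside -0.01 for all genes, and 14 lay below 0. Both IL-5 libraries were above both PBS libraries for 9 members (25.7%), beside 18.1% of all genes, and below for 8 (22.9%), beside 17.3%.

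Lamp2 stood at 394 and 368 CPM in the PBS libraries, against 605 and 576 CPM in the IL-5 libraries (log2 ratio 0.68, SE 0.17, edgeR adjusted p = 1, DESeq2 adjusted p = 0.000213). Cd63 stood at 445 and 374 CPM in the PBS libraries, against 636 and 821 CPM in the IL-5 libraries (log2 ratio 0.88, SE 0.21, DESeq2 adjusted p = 0.000437). Ids, which desulfates heparan and dermatan sulfate, stood at 36.1 and 55.1 CPM in the PBS libraries, against 123 and 139 CPM in the IL-5 libraries (log2 ratio 1.57, SE 0.37, DESeq2 adjusted p = 0.000123). These were the 3 members that DESeq2 called higher, and the groups of each did not overlap. In the same libraries Ttr stood at 65068 and 45089 CPM in the PBS libraries, against 89983 and 91511 CPM in the IL-5 libraries, a log2 ratio of 0.77. The 9 choroid plexus markers together summed to 84493 and 59413 CPM, and to 113799 and 116661 CPM in T cells of IL-5 mice. The 12 T cell markers summed to 6641 and 7478 CPM after PBS but only 4416 and 5372 CPM after IL-5. Of these 12 markers 0 passed edgeR, 4 were called lower by DESeq2, and 8 had both IL-5 libraries below both PBS libraries, with a median log2 ratio of -0.42. T cells IL-5 replicate 1, with the lowest sum, is also the library farthest out on the second principal component, at -174.4. The part of these marker levels in the members' values was not tested.

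Tpp1 was the other member with an unadjusted p under 0.05. It stood at 194 and 186 CPM in the PBS libraries, against 242 and 297 CPM in the IL-5 libraries (log2 ratio 0.55, SE 0.22). Man2b1 stood at 84.4 and 65.1 CPM in the PBS libraries, against 158 and 102 CPM in the IL-5 libraries (log2 ratio 0.85, SE 0.37). Ppt1 stood at 60.4 and 161 CPM in the PBS libraries, against 181 and 219 CPM in the IL-5 libraries (log2 ratio 0.91, SE 0.48). All 3 had higher levels in both IL-5 libraries than in both PBS libraries. Scarb2 stood at 48.0 and 48.3 CPM in the PBS libraries, against 87.8 and 68.2 CPM in the IL-5 libraries (log2 ratio 0.75, SE 0.39), again without overlap. With single libraries left out, the log2 ratio ranged from 0.62 to 0.74 for Lamp2, 0.69 to 1.04 for Cd63 and 1.31 to 1.89 for Ids. It ranged from 0.41 to 0.68 for Tpp1, 0.48 to 1.13 for Man2b1, 0.37 to 1.76 for Ppt1 and 0.53 to 0.92 for Scarb2.

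Laptm5 and Npc1 were lower in level after IL-5. Laptm5 stood at 1075 and 1258 CPM in the PBS libraries, against 791 and 960 CPM in the IL-5 libraries (log2 ratio -0.37, SE 0.17), and Npc1 at 50.9 and 30.3 CPM and at 12.9 and 17.4 CPM (log2 ratio -1.38, SE 0.67). With single libraries left out, Laptm5 ranged from -0.51 to -0.25 and Npc1 from -1.72 to -0.94. Cd68 was the 1 member that DESeq2 called lower (adjusted p = 0.043). Its PBS libraries stood at 0.568 and 5.63 CPM and its IL-5 libraries at 0, at least 29.1-fold lower by the means against 3 counts per library. The 12 microglia markers summed to 25.9 and 70.5 CPM in the T cell PBS libraries, where 4 and 0 of the 12 were at 0. In the T cell IL-5 libraries they summed to 92.1 and 24.4 CPM, and 8 and 4 of the 12 were at 0. Tmem119, P2ry13 and Aif1 were at 0 in both IL-5 libraries.

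The last comparison was the difference between the responses, T cells minus microglia. By edgeR 0 members passed, with 0% of 15397 genes called in either direction. At an unadjusted p under 0.05 there were 5 members with a higher response in T cells and 1 with a lower one, beside 496 and 302 of all genes. DESeq2 called 0 higher, beside 0.857% of all genes, and 1 lower, Cd68, beside 0.357%. The 5 were Scarb2, with a difference in log2 fold change of 1.80 (SE 0.50, edgeR adjusted p = 0.904), and Ids, Man2b1, Psap and Lamp2, with differences of 1.54, 1.51, 1.44 and 0.97. In Scarb2, Lamp2, Tpp1, Man2b1 and Npc2 both IL-5 libraries lay below both PBS libraries in microglia and above both in T cells. Manba showed the reverse. The share of all genes with such a pattern was not counted. For Npc2 the gap in microglia was small, with 1194 CPM in IL-5 replicate 2 against 1213 CPM in PBS replicate 1. The median difference of the 35 was 0.65, beside 0.03 for all genes. Without microglia IL-5 replicate 1 it was 0.28, and without microglia IL-5 replicate 2 it was 1.09. By edgeR's test the responses of the 35 lysosomal genes were not shown to differ between the cell types. By DESeq2 only that of Cd68 was (adjusted p = 0.039), a gene with at most 5.63 CPM in T cells.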

How the data were processed

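The authors deposited raw read counts per gene for 8 single-end libraries (75 bp). Per the submitters' processing notes, the tools named are STAR 2.5.3a, bcl2fastq 2.20.0.422, Cufflinks 2.0, FastQC 1.0.0 and DESeq2 1.1, and the builds named are mm10 and GRCm38. The counting tool and its strand setting are not given in the sources used here, so reads of overlapping or antisense genes cannot be told apart. Of 24953 entries, 2 summary entries and 27 genes with unreadable cells were left out. Symbols matched 1 GENCODE M21 gene on GRCm38 for 24390 genes (97.9%).

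Groups followed the sample titles. Tests were edgeR 4.0.16 quasi-likelihood (R 4.3.3, limma 3.58.1), two-sided, on TMM-scaled counts of genes passing filterByExpr with a minimum count of 10, with Benjamini-Hochberg adjustment over all genes tested and a threshold of 0.05. For IL-5 against PBS each cell type had its own fit, and the other comparisons used a fit of all 8 libraries. The SE is the log2 ratio divided by the square root of F. TPM used the longest GENCODE transcript. The pipeline was also run on simulated counts, with a smaller spread than in these data, so that run does not measure its accuracy here.

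Alternatives were DESeq2 1.42.0, other size factors, other filters, scaling to marker genes, length-adjusted offsets, a replicate block, fits with other sets of libraries and leaving out each library. Figures used Python 3.11.15 and matplotlib 3.10.9. The members, lists and alternatives were chosen with earlier results of these data known. Per-library values were given for reference members, for the 10 members of smallest p in each IL-5 comparison and for the 5 of largest difference between cell types, and the other members were named with ranges or levels.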

Additional observations from a re-analysis of the deposited data

How the results depend on the processing

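The precision is limited by 2 libraries per group. In microglia after IL-5, leaving out single libraries gave 0 to 14 members lower and 0 to 2 higher, with a median from -0.82 to -0.26. The median with length-adjusted offsets was -0.25. Npc1 turned to -0.01 without PBS replicate 2 and to -0.26 without IL-5 replicate 1, and ranged up to 0.58. Npc2 turned to 0.24 with length-adjusted offsets, to 0.24 with these and the replicate block, and to 0.17 when libraries were scaled to microglia markers. The cause of these changes was not tested.

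In T cells after IL-5 DESeq2 called 3 members higher and 1 lower. The median was 0.46 with libraries scaled to T cell markers, and it ranged from -0.046 to 0.21 with single libraries left out, below 0 without IL-5 replicate 2. Over all genes the counts ranged from 0 to 403 higher and 0 to 255 lower in T cells, and from 0 to 532 and 0 to 723 in microglia, against 0 as reported.

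Between T cells and microglia of PBS mice, 1 member was higher by DESeq2 and 1 with library size only. Members lower numbered 9 to 20 with single libraries left out, with medians from -1.98 to -1.49. The median was -0.83 with library size only, -1.78 with length-adjusted offsets and -1.78 with these and the block. In IL-5 mice members lower numbered 7 with library size only, 3 in a fit of the 4 libraries compared and 5 to 12 with single libraries left out. The median was -0.071, -1.49 and -1.48 under the same 3 changes of scaling. With library size only Scarb2, Ids, Psap and Lamp2 turned to 0.12, 0.59, 0.47 and 0.28 in IL-5 mice. Psap was 0.16 without microglia IL-5 replicate 2 and 0.06 without T cells IL-5 replicate 1, and ranged down to -0.81. Over all genes, counts ranged from 134 to 1226 higher and 349 to 1623 lower in PBS mice, and from 45 to 1154 and 172 to 1717 in IL-5 mice.

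For the difference of the responses, Cd68 was called by DESeq2 and without T cells PBS replicate 1, 1 member lower in each. Its median ranged from 0.28 to 1.09 with single libraries left out. Over all genes 0 to 178 were higher and 0 to 55 lower.

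The labels share replicate numbers. Deviations of same-numbered libraries correlated at -0.005 to 0.016, which with 2 libraries per group cannot show whether they share mice or a batch. With the replicate block the counts stayed at 0 for IL-5 in both cell types, with medians of -0.67 and 0.18. In T cells against microglia they were 18 and 11 lower, with medians of -1.62 and -0.91.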
